A study of Homo sapiens with 4 samples.

Results

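TRIM24 and TRIM28 binding was examined at the ZSCAN, ZKSCAN and ZFP genes, which are named for zinc fingers but carry other prefixes than the large ZNF group. Members were the protein-coding genes of the GENCODE annotation of hg19 on chromosomes 1 to 22 and X whose symbol starts with ZSCAN, ZKSCAN or ZFP followed by a digit. The rule gave 51 of 20098 protein-coding genes, made up of 21 ZSCAN, 8 ZKSCAN and 22 ZFP genes, and 515 ZNF genes served as the most similar group. The ChIP-seq data came from LNCaP, a line of human prostate cancer cells that responds to androgen, with 1 library for each of 4 conditions and no replicate. In all of them the cells were kept for 3 days in charcoal-stripped serum, which is low in androgen, and then treated for 16 h with either ethanol, the vehicle, or 10 nM R1881, a synthetic androgen. TRIM24 was pulled down through its HA tag from LNCaP cells stably expressing HA-TRIM24, so that the TRIM24 sites are those of an introduced tagged protein. TRIM28 was pulled down by its own antibody, from plain LNCaP cells by the sample labels and from the HA-TRIM24 cells by the published description. All samples share the starvation, and none of them carries a knockdown.

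C2H2 zinc finger proteins read DNA through tandem fingers that are usually encoded together in a single large exon at the 3′ end of the gene. The SCAN domain, which gives the ZSCAN and ZKSCAN genes their names, pairs these proteins with each other, and the KRAB domain, the K in ZKSCAN, recruits TRIM28. TRIM28 in turn brings in the histone methyltransferase SETDB1, HP1 proteins and the NuRD complex, and it is well known for lying over the 3′ exons of zinc finger genes themselves. TRIM24, a relative of TRIM28 with a bromodomain that reads acetylated histones, is known as a coactivator of the androgen receptor. The prefix is only a rough guide to the protein. Of the 51 members, 4 had no C2H2 finger in the last coding exon, namely ZFP36, ZFP36L1 and ZFP36L2, which are CCCH proteins that bind AU-rich elements of mRNA, and the readthrough gene ZFP91-CNTF, whose last coding part was 12 bp.

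TRIM24 had 5232 sites with ethanol and 9363 with R1881, and TRIM28 had 58201 and 34574. Total tags were 11606880, 12884097, 25145171 and 14231181 in the same order, and the strength of a site is given as normalized tags, its tags scaled to a library of 10000000. The peak caller asked for at least 12 tags in TRIM28 with ethanol, or 4.77 normalized tags, and for at least 9 tags in the other samples, or 7.75, 6.99 and 6.32 normalized tags in the above order. Some listed sites fall below it, down to 6.0 and 5.4 for TRIM24 with ethanol and R1881, and to 4.0 and 5.6 for TRIM28. A site that is missing from a list may therefore lie near or under that minimum. Intervals are 95% Poisson intervals of the tags behind a value. They cover counting error only, and with 1 library per condition the variation between cultures is unknown, so no test of a treatment was possible.

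Of the 51 members, 13 carried a TRIM28 site in the last coding exon with R1881 and 15 with ethanol, and none carried a TRIM24 site there in either treatment. The sequences of the 6 strongest of these TRIM28 sites with R1881 are printed first, because they show what kind of DNA lay under the sites. They were read from the hg19 genome on the coding strand of each gene, 5′ to 3′, and each is 157 bases long. Capitals mark DNA that encodes TGEKP, the linker that joins neighbouring fingers in many C2H2 proteins. The sites lie at chr1:40928990-40929146 in ZFP69B (plus strand), chr6:28294279-28294435 in ZSCAN31 (minus strand), chr7:99129039-99129195 in ZKSCAN5 (plus strand), chr16:3433008-3433164 in ZSCAN32 (minus strand), chr9:115805217-115805373 in ZFP37 (minus strand) and chr16:68598337-68598493 in ZFP90 (plus strand).
ZFP69B: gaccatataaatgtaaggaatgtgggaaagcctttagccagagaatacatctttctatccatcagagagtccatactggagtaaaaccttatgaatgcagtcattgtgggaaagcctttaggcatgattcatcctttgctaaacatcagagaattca
ZSCAN31: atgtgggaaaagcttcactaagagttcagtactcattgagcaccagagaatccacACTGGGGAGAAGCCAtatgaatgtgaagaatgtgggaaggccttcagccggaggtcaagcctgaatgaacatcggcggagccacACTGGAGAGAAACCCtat
ZKSCAN5: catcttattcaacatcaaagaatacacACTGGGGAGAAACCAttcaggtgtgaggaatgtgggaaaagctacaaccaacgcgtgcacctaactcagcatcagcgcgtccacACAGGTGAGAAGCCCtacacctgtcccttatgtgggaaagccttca
ZSCAN32: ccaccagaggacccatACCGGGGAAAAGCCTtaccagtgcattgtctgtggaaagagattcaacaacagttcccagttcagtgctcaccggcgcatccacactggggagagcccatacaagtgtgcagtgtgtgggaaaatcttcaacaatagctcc
ZFP37: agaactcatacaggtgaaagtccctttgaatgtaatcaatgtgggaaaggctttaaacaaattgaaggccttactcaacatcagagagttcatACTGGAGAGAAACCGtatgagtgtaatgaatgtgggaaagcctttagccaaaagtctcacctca
ZFP90: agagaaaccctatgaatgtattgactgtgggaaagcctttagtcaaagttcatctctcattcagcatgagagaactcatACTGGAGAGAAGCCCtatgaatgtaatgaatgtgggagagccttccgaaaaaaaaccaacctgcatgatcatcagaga

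Each of these sequences is part of an array of finger repeats. Exact linker DNA occurred 2 times in the sites of ZSCAN31 and ZKSCAN5 and 1 time in those of ZSCAN32, ZFP37 and ZFP90, and it was not found in that of ZFP69B, the strongest of them. Over all exon sites of the members, the linker was encoded in 16 of 18 sites with R1881 (88.9%) and in 13 of 17 with ethanol (76.5%), searched in 3 frames on both strands. Among all TRIM28 sites on the same chromosomes, 0.559% held it with R1881 and 0.362% with ethanol. The exons themselves are rich in it. Consecutive windows of 157 bp over the last coding exons of all members held the linker in 127 of 314 (40.4%), and windows over the 13 exons with an R1881 site in 51 of 94 (54.3%). Of the TRIM28 sites of members outside the last coding exon, 2 of 31 held it with R1881 and 2 of 57 with ethanol.

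The share of members with a TRIM28 exon site, 25.5% with R1881 and 29.4% with ethanol, stood beside 1.67% and 2.52% of all protein-coding genes and beside 29.5% and 32.0% of ZNF genes. No member had a TRIM24 exon site, against 0.388% of all genes with R1881 and 0.179% with ethanol, and no ZNF gene had one. With shares this low over all genes, nothing is read from the absence in the members. The coding part of the last coding exon is longer in members, with a median of 954 bp against 168 bp over all genes, so the comparison was repeated in exons of at least 1000 bp. There, 10 of 22 members (45.5%) had a TRIM28 site with R1881 and 12 of 22 (54.5%) with ethanol. The same shares were 36.5% and 40.9% of the ZNF genes, and 2.53% and 5.34% of the genes that are neither members nor ZNF genes. Below 1000 bp, 3 of 29 members had an exon site in each treatment, namely ZSCAN29, ZSCAN31 and ZSCAN32. This share, 10.3%, stood beside 13.1% of ZNF genes and 0.864% of all genes with such exons with R1881, and beside 11.1% and 1.48% with ethanol. Each of the 13 exons with an R1881 site also had one with ethanol. The same held for 142 of 152 ZNF genes and 278 of 336 protein-coding genes with an R1881 exon site. It is therefore not particular to the members.

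**Figure D1:**
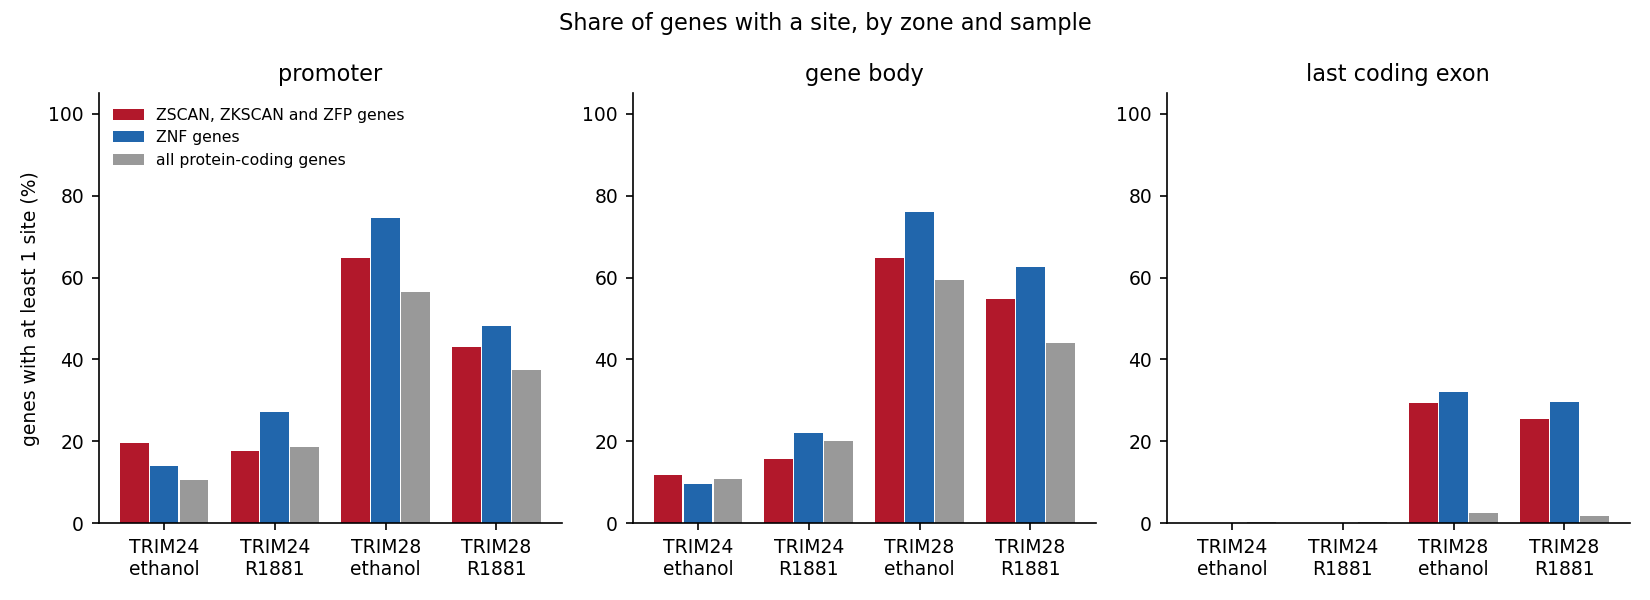
Share of genes with at least 1 site (y axis, percent) in the promoter, the gene body and the last coding exon, for each of the 4 samples (x axis), in the 51 members (red), the 515 ZNF genes (blue) and all 20098 protein-coding genes (grey). The members stand far from all genes in the last coding exon with TRIM28, at 29.4% and 25.5% against 2.52% and 1.67%. Their TRIM24 bars there are at 0, beside 0.179% and 0.388% of all genes.

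ZFP69B carried the strongest exon site with R1881, at 35.8 normalized tags (26.7 to 47.1), and 33.0 (26.3 to 40.9) with ethanol. Only 1.07% of all TRIM28 sites were stronger with R1881 and 0.624% with ethanol. ZFP69, its neighbour on chromosome 1 with a finger array of the same size, had 9.1 (4.86 to 15.6) and 9.5 (6.12 to 14.2) normalized tags in the same order. The pair differed clearly in strength in both libraries, with intervals that do not overlap.

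ZSCAN31, a SCAN gene of the cluster on chromosome 6, had 31.6 normalized tags (23.1 to 42.3) with R1881 and 37.0 (29.9 to 45.3) with ethanol. ZKSCAN5, which carries both a SCAN and a KRAB domain, had 30.2 (21.9 to 40.7) and 36.2 (29.1 to 44.4). ZSCAN32, on chromosome 16, had 23.2 (16.0 to 32.6) and 36.2 (29.1 to 44.4). These genes and ZFP69B had the highest values in both libraries, and no order among them can be read within the counting error of either library. With R1881 the intervals of all these genes, ZFP69B included, also overlap those of ZFP37 and ZFP90, given next.

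ZFP37 had 21.1 normalized tags (14.2 to 30.1) with R1881 and 20.7 (15.4 to 27.1) with ethanol, and it had a second site in the same exon at 14.1 and 12.3. ZFP90 had 21.1 (14.2 to 30.1) and 12.7 (8.7 to 18.0), also with a second site in each treatment, at 11.2 and 7.2. ZFP1 had 13.4 (8.04 to 20.8) with R1881 and 7.6 (4.55 to 11.8) with ethanol. With R1881 these values lay between those of ZSCAN32 and ZFP2, with intervals that overlap both. With ethanol ZFP1 was the lowest of the 13 exons with a site in both treatments. ZFP2 had 10.5 with R1881 and 8.4 with ethanol, ZSCAN29 had 9.8 and 8.4, and ZSCAN20 had 9.1 and 10.7. ZSCAN2 and ZFP3 closed the list at 8.4 and 7.7 with R1881 and at 12.3 and 9.5 with ethanol. The median over the members with a site was 13.4 normalized tags with R1881 and 10.7 with ethanol. It was 11.55 and 9.9 over the ZNF genes with a site and 7.7 and 6.4 over the remaining genes with one. The ethanol median of the members also takes in ZFP14 and ZFP82, which had no R1881 exon site. Over the 13 members with a site in both treatments it was 12.3.

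**Figure D2:**
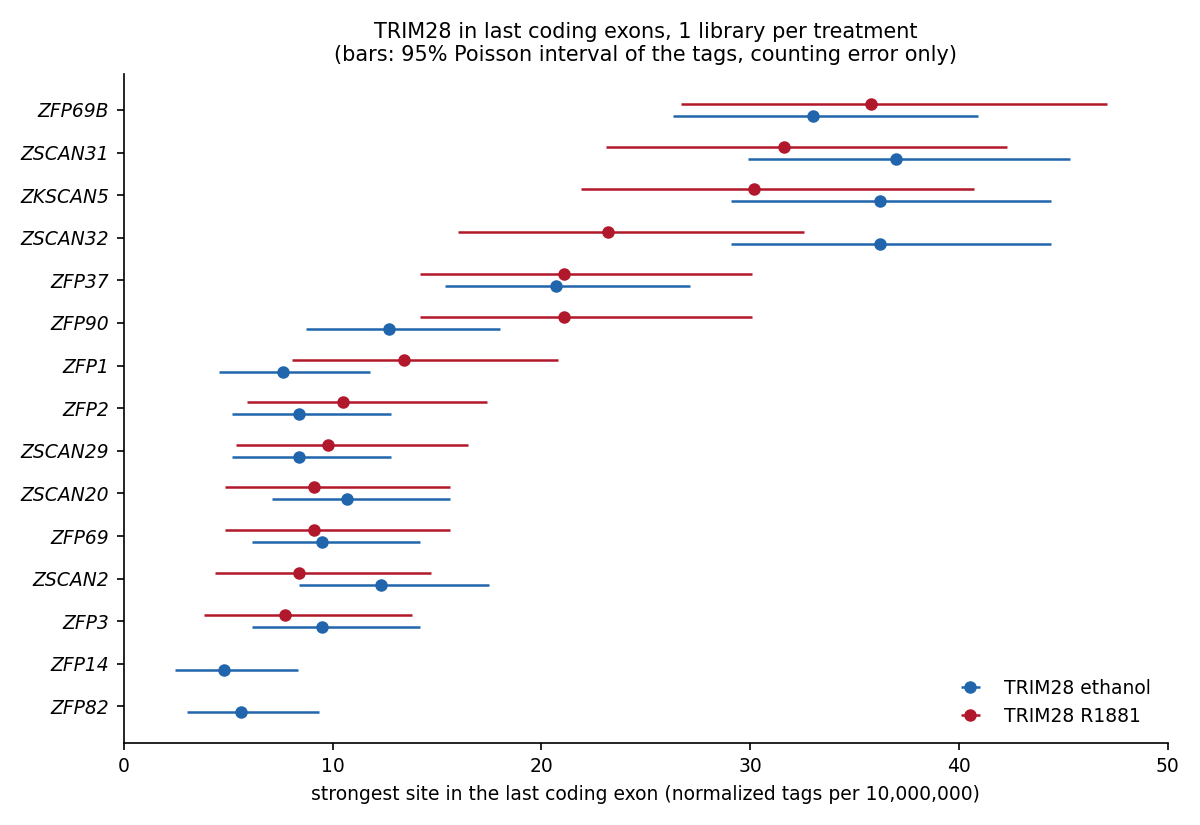
Normalized tags (x axis, per 10000000 tags) of the top exon site of TRIM28 in each of the 15 members with one (y axis), with R1881 (red) and ethanol (blue). Bars are 95% Poisson intervals of the tags (counting error only). ZSCAN32 sits at 23.2 with R1881 and 36.2 with ethanol, most other genes have closer points, and ZFP14 and ZFP82 have an ethanol point only.

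Within counting error, no difference between the R1881 and ethanol values could be read in most exons. The ratio of R1881 to ethanol had a 95% interval that held 1 in 12 of 13 members, and 6 of 13 were higher with R1881. The exception was ZSCAN32, at a ratio of 0.641 (0.417 to 0.964), an interval that is not adjusted for the 13 genes looked at. The largest ratios were those of ZFP1, at 1.77 (0.885 to 3.53), and ZFP90, at 1.66 (0.972 to 2.81). Intervals this wide cannot show that the values of the treatments were the same. The median ratio was 0.958 over the members, 1.11 over 142 ZNF genes with an exon site in both treatments, and 1.06 over all 21373 overlapping TRIM28 sites. The 2 exon sites called with ethanol only were weak. ZFP14 had 4.8 normalized tags (2.47 to 8.34), which is under the lowest value listed with R1881, 5.6. ZFP82 had 5.6 (3.04 to 9.34), equal to that lowest value. At this depth no difference between the treatments can be read from either gene.

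The position of the sites repeated between the libraries. The strongest sites of the 2 treatments overlapped in 11 of 13 members, with centres 43 bp apart at the median, and the overlapping pairs were between 1 and 100 bp apart. In ZFP1 the centres differed by 1 bp and in ZFP69B by 3 bp. The exceptions were ZFP2, where the strongest sites lay over different fingers 288 bp apart, and ZFP3. In ZFP3 the R1881 sites were tied at 7.7 normalized tags and 11 tags each, and the one taken as the strongest lay 350 bp from the ethanol site while the other overlapped it. In ZFP2 a weaker R1881 site, also at 7.7, overlapped the ethanol site, so that each of the 13 exons had at least 1 site in the same place in both treatments.

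All 18 exon sites with R1881 and all 17 with ethanol had their centre between the first and the last C2H2 finger, and 1 to 3 fingers lay under each of them. Their centres were 183 to 936 bp from the 3′ end of the coding part with R1881, with a median of 415.5 bp, and 172 to 909 bp with ethanol, with a median of 520 bp. The finger array spans most of each of these exons, and no background was counted for centres that lie inside it. It runs from 1173 to 18 bp from the 3′ end in ZSCAN2, with 1436 bp of coding part. In ZSCAN32 it runs from 525 to 42 bp, with 857 bp. The fingers covered differed between genes. Counted from the 5′ side, the strongest R1881 site covered fingers 1 to 3 in ZKSCAN5, 7 to 8 in ZFP69B, 8 to 10 in ZFP37 and 11 to 12 in ZFP90. ZFP2 held 3 sites with R1881, over fingers 1 to 3, 5 to 7 and 10 to 12, which spread over most of its array of 13 fingers.

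**Figure D3:**
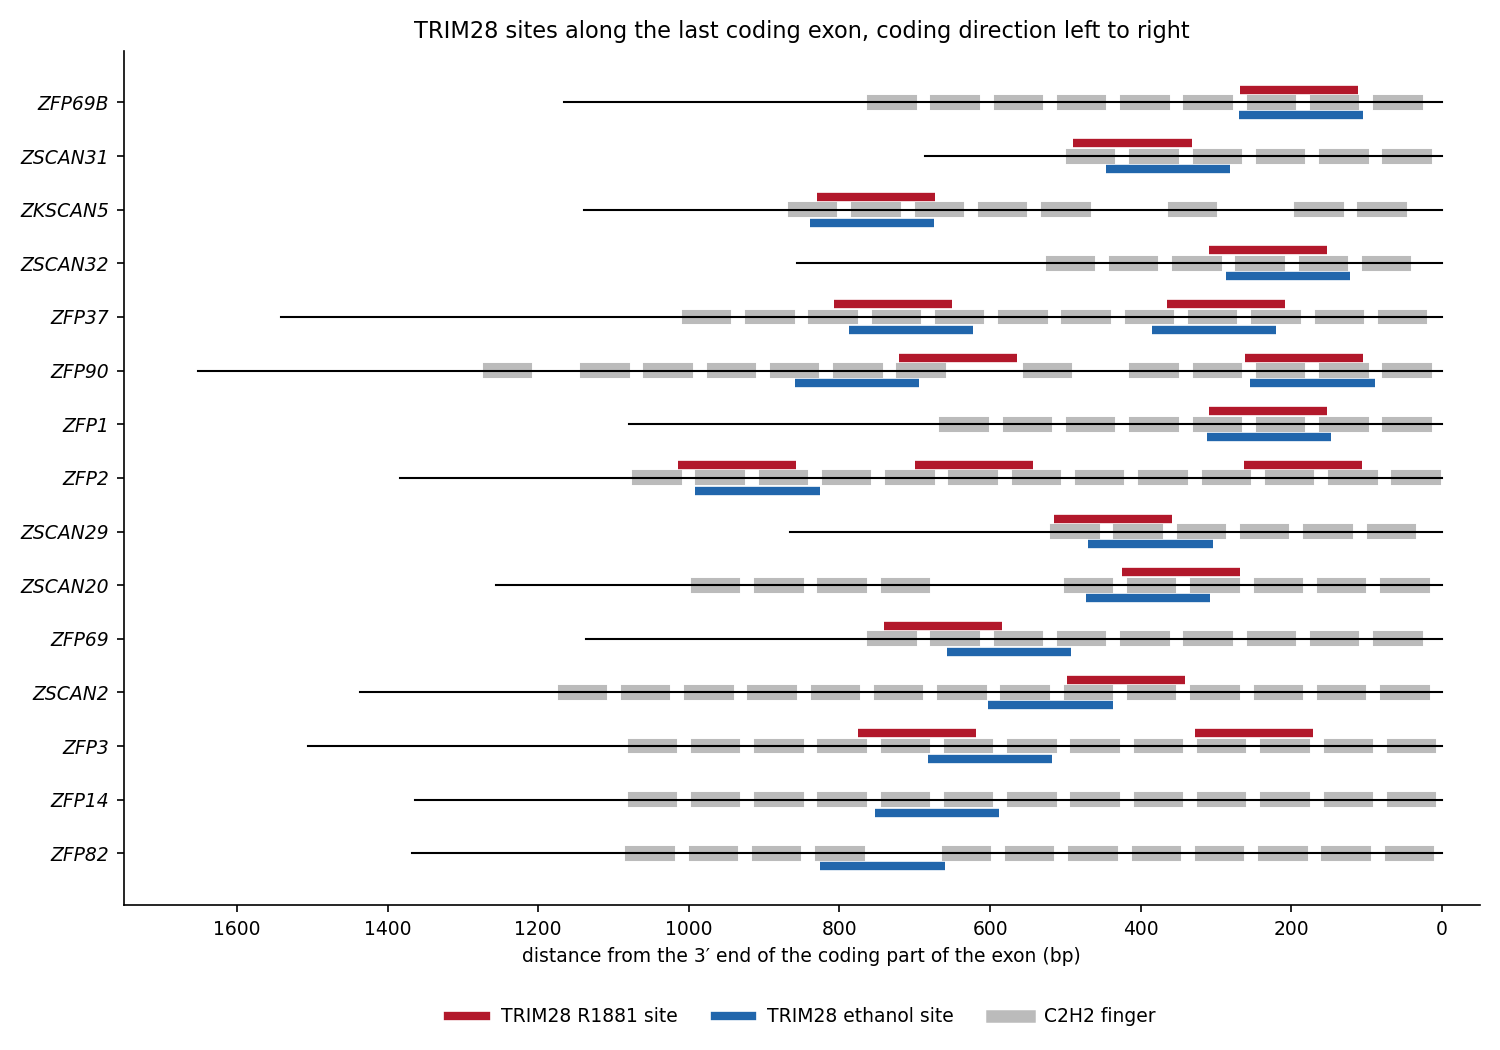
TRIM28 sites with R1881 (red) and ethanol (blue) along the last coding exon of the 15 members with an exon site, drawn to scale as distance from the 3′ end of the coding part (x axis, bp). Grey boxes are C2H2 fingers found by pattern in the translated exon, and the sites lie over the finger array in each gene, at different fingers in different genes.

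Exon sites were more frequent in members with more fingers, counted as matches of the C2H2 pattern. Overlapping matches count separately, as in ZFP62, ZSCAN10, ZSCAN26 and ZFP57, so their counts are too high. None of 11 members with 0 to 4 fingers had an exon site in either treatment. Of 17 members with 5 to 7 fingers, 3 had one in both treatments. Of 23 members with 8 or more fingers, 10 had one with R1881 and 12 with ethanol. ZSCAN26 and ZFP57 are among the 23 with 8 matches each, some of them overlapping, and had no exon site. The occupied exons had 6 to 14 fingers (median 9) with R1881, and the others 0 to 26 (median 6). ZSCAN31 and ZSCAN32, with strong exon sites, had 6. The occupied exons were also longer, with a median of 1166 bp against 909.5 bp. Finger number and length go together here, and the part of each was not tested. Many fingers alone did not go with a site. ZFP62, which has 26 matches in an exon of 2699 bp, ZSCAN10 with 15 and ZFP28 with 14 had no exon site in either treatment. ZFP62 and ZFP28 were picked after their values were seen. The median uniqueness of sequence was similar in both groups, but the lowest values lay in exons without a site. The share of 31-mers of the exon that occur once in the genome had a median of 99.3% in the occupied exons. Their lowest value was 93.6%. In the others the median was 99.4%, and the share fell to 64.7% in ZSCAN5A, 65.8% in ZSCAN5C and 70.5% in ZKSCAN7. It was 82.0% in ZSCAN5B, 83.3% in ZKSCAN4 and 83.7% in ZKSCAN3. How reads with several matches were treated is not given in the sources used here, and its part in these blanks was not tested.

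**Figure D4:**
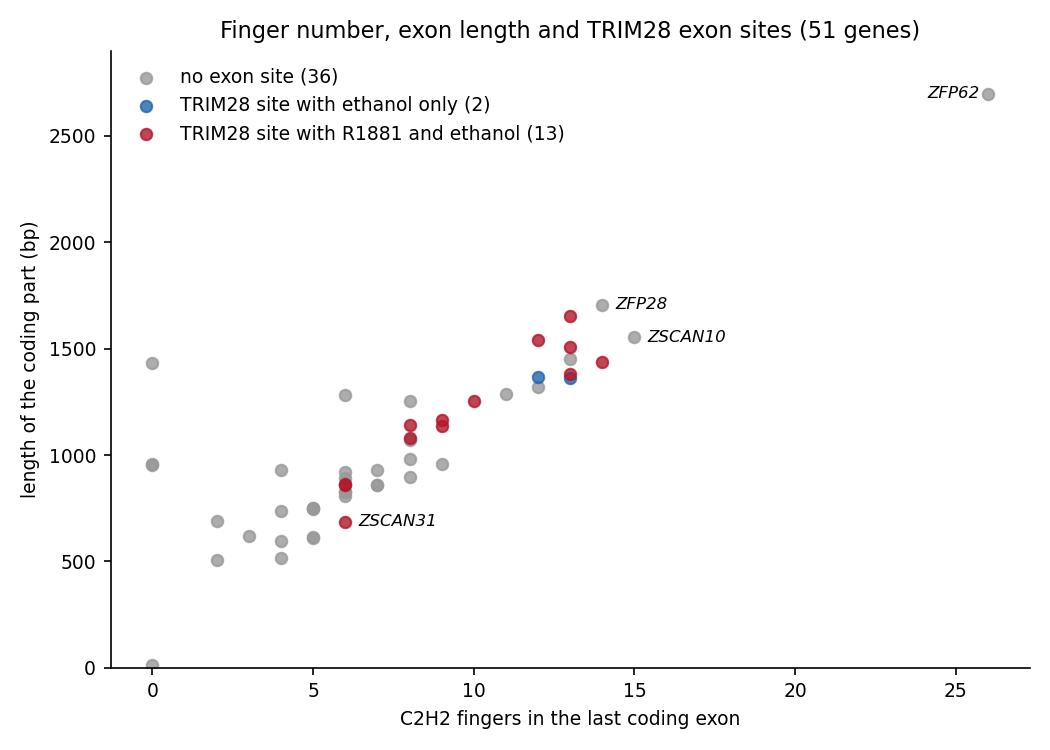
Number of C2H2 fingers, counted as pattern matches (x axis), and length of the coding part (y axis, bp) of the last coding exon of the 51 members, coloured by TRIM28 exon sites: with R1881 and ethanol (red, 13), with ethanol only (blue, 2) or none (grey, 36). No gene with fewer than 6 fingers has an exon site, and ZFP62 at 26 matches, some of them overlapping, has none either.

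The members lie in groups along the genome, and exon sites were spread unevenly among them. All 3 members on chromosome 1, ZSCAN20, ZFP69B and ZFP69, had an exon site in both treatments, as did 3 of 5 on chromosome 16, ZSCAN32, ZFP90 and ZFP1. Of 11 members on chromosome 6, ZSCAN31 was the only one with an exon site in either treatment. Of 12 members on chromosome 19, none had one with R1881 and ZFP14 and ZFP82 had one with ethanol. Among these 12, ZFP36, ZSCAN18, ZSCAN1 and ZSCAN4 have 0 to 4 fingers. Uniqueness of the exon sequence was 64.7% in ZSCAN5A, 65.8% in ZSCAN5C and 82.0% in ZSCAN5B. ZFP30, ZFP28 and ZSCAN22, with 12, 14 and 8 fingers, had no exon site either. Sites were not counted by chromosome for ZNF genes or all genes, and the part of location was not tested. By name, exon sites with R1881 were found in 5 of 21 ZSCAN genes, 1 of 8 ZKSCAN genes and 7 of 22 ZFP genes. ZKSCAN5 was the only ZKSCAN gene with an exon site in either treatment. The classes here rest on the symbols and not on a search for domains.

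At promoters, within 2 kb of any annotated transcription start site (TSS), TRIM28 was common in members as in other genes. With ethanol, 33 of 51 members (64.7%) had a TRIM28 promoter site beside 56.5% of all protein-coding genes and 74.6% of ZNF genes. With R1881, 22 members (43.1%) had one beside 37.5% and 48.2%. TRIM24 promoter sites were found in 10 members (19.6%) with ethanol beside 10.6% of all genes and 14.0% of ZNF genes, and in 9 members (17.6%) with R1881 beside 18.5% and 27.2%. Nothing particular to the members is read from these shares, which lie near those of all genes or, for TRIM24 with ethanol, rest on 10 genes. The TRIM28 promoter sites were called in both treatments in 21 members, with ethanol alone in 12 and with R1881 alone in 1, ZSCAN26, at 5.6 normalized tags. With R1881 23 of 30 promoter sites and with ethanol 39 of 51 had their centre within 500 bp of a TSS.

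The strongest promoter sites of TRIM28 with R1881 were those of ZSCAN31 and ZSCAN32, and both are the exon sites described above. A TSS is annotated 137 bp from the site centre in ZSCAN31 and 975 bp from it in ZSCAN32. The promoter values of ZFP90, 11.2 normalized tags with R1881 and 7.2 with ethanol, and of ZSCAN2, 8.4 and 12.3, are likewise exon sites. Leaving such sites out, 20 members kept a TRIM28 promoter site with R1881 and 33 with ethanol, with medians of 7.7 and 7.6 normalized tags. The strongest of the remainder was ZFP30, at 17.6 (11.4 to 25.9) with R1881 and 21.5 (16.1 to 28.0) with ethanol. With R1881 the next was ZFP37, at 16.9 (10.8 to 25.1), which had 11.5 (7.72 to 16.6) with ethanol. With ethanol ZSCAN22, at 13.9 (9.7 to 19.4), and ZKSCAN1, at 12.7 (8.7 to 18.0) and picked after its values were seen, lay above ZFP37 with overlapping intervals.

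For TRIM24 with R1881, the strongest promoter site was that of ZFP37, at 16.3 normalized tags (10.1 to 24.9), against 12.1 (6.59 to 20.2) with ethanol. Its centre was 1 bp from a TSS, and a TRIM28 site overlapped it in each treatment. ZSCAN32 had 13.2 (7.69 to 21.1) with R1881 and no site with ethanol, at a promoter that it shares with ZNF174. ZFP2 had 11.6 (6.52 to 19.2) with R1881 and none with ethanol. ZSCAN22 had 10.1 (5.37 to 17.3) and 12.1 (6.59 to 20.2), and ZSCAN2 had 9.3 (4.81 to 16.3) with R1881 and none with ethanol. With ethanol, ZFP14 and ZFP30 both reached 13.8 (7.88 to 22.4). ZFP30 had 8.5 (4.26 to 15.3) with R1881, an interval that overlaps the ethanol one, and ZFP14 had no TRIM24 promoter site with R1881. A TRIM24 promoter site was called in both treatments in 4 members, with R1881 alone in 5 and with ethanol alone in 6.

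Promoter sites were present in all 4 samples in 4 members (7.84%), ZFP30, ZFP37, ZSCAN22 and ZSCAN5A, beside 4.92% of all genes. Every member with a TRIM24 site in any zone, 17 in all, also had a TRIM28 site in some zone and sample. TRIM28 sites in some zone and sample were found in 39 of 51 members (76.5%). The same match was not counted over all genes, so nothing particular to the members is read from it. Site by site, 9 of 11 TRIM24 sites of members with ethanol overlapped a TRIM28 site of the same treatment, beside 64.2% of all TRIM24 sites, and 4 of 11 with R1881 beside 50.2%. With R1881, 3 of 11 TRIM24 sites of members overlapped an ethanol site of TRIM24 (25.5% of all TRIM24 sites), and 33 of 49 TRIM28 sites overlapped an ethanol site of TRIM28 (62.6% of all). With so few sites, these shares are descriptions.

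**Figure D5:**
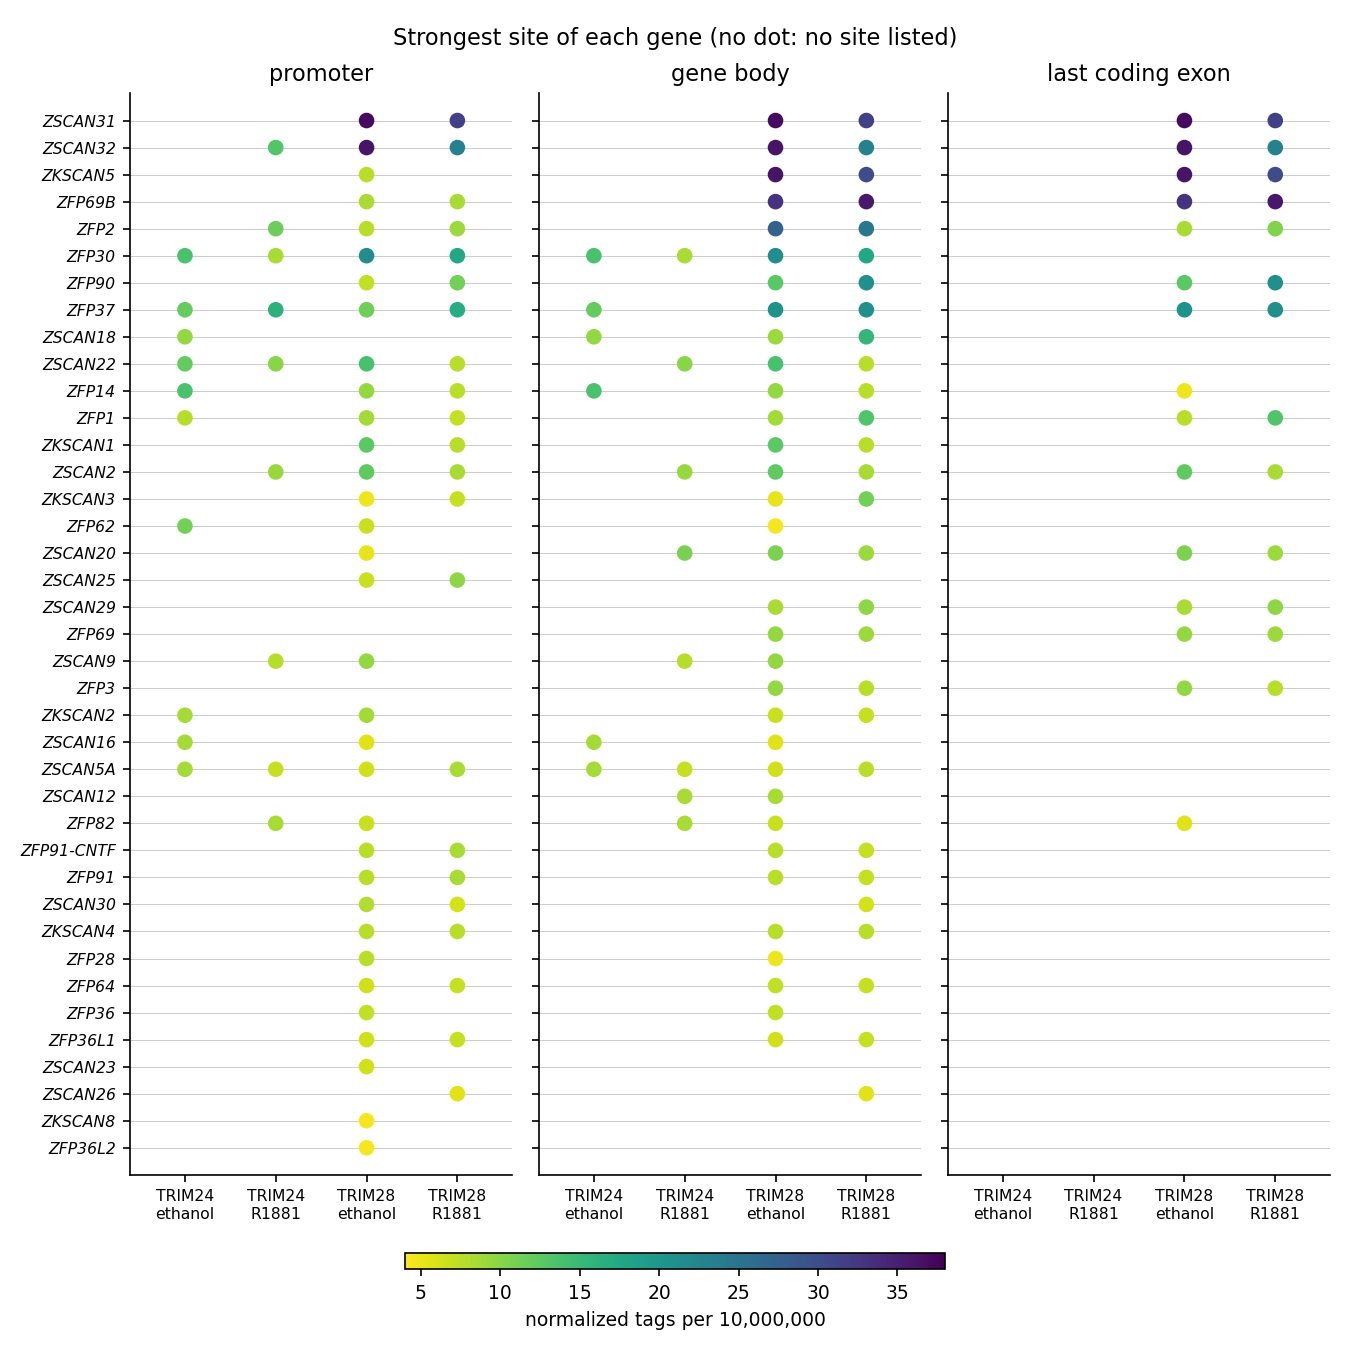
Strongest site (colour, normalized tags per 10000000) of each of the 39 members with at least 1 site (rows), by sample (columns) in the promoter, the gene body and the last coding exon, with no dot where no site is listed. The exon panel has dots in the TRIM28 columns only. Values over 30 normalized tags belong to the TRIM28 exon sites of ZSCAN31, ZSCAN32, ZKSCAN5 and ZFP69B. The body panel repeats these sites, and the promoter panel repeats those of ZSCAN31 and ZSCAN32.

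In the gene body as a whole, TRIM28 sites were found in 33 members (64.7%) with ethanol and in 28 (54.9%) with R1881, beside 59.5% and 44.1% of all genes. TRIM24 body sites were found in 6 members (11.8%) with ethanol and in 8 (15.7%) with R1881, beside 10.7% and 20.2%. Most members with a TRIM28 body site had it near a TSS or in the last coding exon alone. Outside both, TRIM28 sites remained in 10 members (19.6%) with ethanol and 8 (15.7%) with R1881, beside 36.6% and 28.2% of all genes, and TRIM24 sites in 0 and 2 members. Members have shorter gene bodies, with a median of 18383 bp against 27256.5 bp over all genes, and the part of gene length in the lower share was not tested. The strongest of these inner sites was in ZFP2. It had 27.4 normalized tags (21.4 to 34.7) with ethanol and 24.6 (17.1 to 34.2) with R1881, in an intron at chr5:178336367-178336523 with R1881, and this is stronger than its promoter and exon sites in both treatments. ZSCAN18, picked after its values were seen, had a body site of 15.5 (9.69 to 23.4) with R1881 and 9.1 (5.8 to 13.7) with ethanol in an exon of another transcript.

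Several members are known for roles of their own, and none of them had an exon site. Over all members, only 15 of 51 had one in either treatment. ZFP36, ZFP36L1, ZFP36L2, ZFP91, ZFP42 and ZSCAN4 have 0 to 4 fingers, a range in which none of 11 members had one. Nothing is therefore read from the absence in these genes. For reading their promoter values, the median strongest TRIM28 promoter site over all genes with one was 7.2 normalized tags with ethanol and 7.7 with R1881. Among the CCCH genes, ZFP36 had 7.2 normalized tags with ethanol and no site with R1881, ZFP36L1 had 6.4 with ethanol and 7.0 with R1881, and ZFP36L2 had 4.4 with ethanol and no site with R1881. ZFP91, a ubiquitin ligase of the NF-κB pathway, had 7.6 with ethanol and 8.4 with R1881 at a promoter shared with ZFP91-CNTF and LPXN. ZKSCAN3, a repressor of autophagy genes, had 4.8 and 7.0 at its promoter and no exon site. Its gene body overlaps that of ZSCAN31, and some sites count for both genes. ZFP57, which guards imprinted methylation, ZFP42 (also named REX1), a pluripotency marker, ZSCAN4, active in early embryos, and ZSCAN10, a stem cell factor, had no site in any zone or sample. In all, 12 members had no site anywhere, the others being ZKSCAN7, ZKSCAN8P1, ZSCAN21, ZFP41, ZSCAN5B, ZSCAN5C, ZSCAN1 and ZFP92. ZSCAN10 lies on the short arm of chromosome 16 like ZSCAN32, which held one of the strongest exon sites.

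The genes of the TRIM28 repressor pathway were looked at in the same way. Of 18 such genes, which include TRIM28 and TRIM24 themselves, SETDB1, the HP1 genes CBX1, CBX3 and CBX5, and the HUSH genes MPHOSPH8, TASOR and PPHLN1, 17 had a TRIM28 promoter site with ethanol (94.4%, beside 56.5% of all genes) and 15 with R1881 (83.3%, beside 37.5%). TRIM24 promoter sites were found in 8 of them with ethanol (44.4%, beside 10.6% of all genes) and in 7 with R1881 (38.9%, beside 18.5%). None had a site in the last coding exon in any of the 4 samples, and with 18 genes nothing is read from this beside the 2.52% and 1.67% of all genes with a TRIM28 exon site. ZNF274, a zinc finger protein known to bring TRIM28 and SETDB1 to the 3′ exons of zinc finger genes, had a TRIM28 body site of 24.3 normalized tags with ethanol and 26.0 with R1881, and a TRIM24 promoter site of 10.3 and 13.2.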

How the data were processed

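TRIM24 and TRIM28 ChIP-seq sites of 4 samples were used, 1 library per condition, grouped by their labels. Per the submitters' processing notes and the file headers, the authors aligned reads to hg19 with BWA 0.6.1 and called sites in each sample with HOMER 4.1, at FDR 0.001, a fold of 4 over the surrounding 10 kb, a local Poisson p of 0.0001 and at most 1 tag per base. The command names no input library. The deposited signal is the tags of a site scaled to 10000000 tags per library. The authors also deposited a score (not used), a fold over the local region (a ratio, used as an alternative) and a local p-value (not used). Tags were recovered as whole numbers at every site, within rounding of the deposited value. The recovered values lay at most 0.126 tags from a whole number.

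Genes came from GENCODE release 44 on GRCh37. A site counted for a promoter when its centre lay within 2 kb of a TSS, for a gene body when its centre lay inside, and for the last coding exon of the longest coding transcript when it overlapped the coding part by at least 1 bp. C2H2 fingers were found by pattern in the translated exon, in the frame with most matches. Overlapping matches were counted separately, which raises the counts of ZFP62, ZSCAN10, ZSCAN26 and ZFP57. Uniqueness was the share of 31-mers found once in the genome. Ratio intervals are exact and conditional on the sum of the tags. No p-value was computed, since each condition has 1 library. The members and lists were chosen with earlier results of these data known. Named genes were the 10 members with the strongest TRIM28 exon site with R1881, the 5 with the strongest promoter site of TRIM28 and of TRIM24 with R1881, up to 5 with an exon site in one treatment only, ZSCAN10 and ZSCAN32, and 8 members known for other roles. Scripts used Python 3.11.15, numpy 2.4.6, pandas 2.3.3, scipy 1.17.1, numba 0.67.0, Biopython 1.88 and matplotlib 3.10.9, and were tested on simulated data. Labels and publication differ on the sequencing platform, the sheared size and the cells of the TRIM28 ChIP.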

Additional observations from a re-analysis of the deposited data

Results flagged for a closer look

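With R1881 the number of members with a site in the gene body moved in opposite directions for the 2 antibodies. It was 2 higher for TRIM24 (8 against 6 members) and 5 lower for TRIM28 (28 against 33), and the difference was not tested, since each condition has 1 library. The shares of all protein-coding genes moved in the same directions, from 10.7% with ethanol to 20.2% with R1881 for TRIM24 and from 59.5% to 44.1% for TRIM28, so the pattern is not particular to the members. The TRIM28 ethanol library is also the deepest, at 25145171 tags against 14231181 with R1881. At a minimum of 6.0 normalized tags in all samples, the counts were 8 against 6 members for TRIM24 and 27 against 29 for TRIM28.

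ZSCAN5A was the only one of the 4 members with promoter sites in all samples whose strongest sites moved in opposite directions with R1881, and this too was not tested. TRIM24 went from 8.6 normalized tags (4.13 to 15.8) with ethanol to 7.0 with R1881 (9 tags), a difference of -1.6 at the promoter, while TRIM28 went from 6.4 (3.64 to 10.3) to 8.4 (4.36 to 14.7), a difference of 2.0. The intervals overlap widely, and the strongest R1881 sites of the 2 antibodies lay at different TSSs of the gene. In the gene body the differences were -1.6 and 1.3.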

How the results depend on the processing

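The TRIM28 exon counts stayed between 10 and 13 with R1881 and between 12 and 15 with ethanol under their alternatives. The count of members with an exon site in both treatments and the TRIM28 promoter counts stayed within 1.5 times their values. Both exon medians stayed within their counting intervals with the mean over the sites of an exon, and in members with a site in both treatments. With R1881 the latter are the same members. These intervals, 7.08 to 15.6 with ethanol and 8.04 to 20.8 with R1881, are those of the tags of the middle gene alone. They are wide and do not measure the spread of a median over genes, so staying within them says little. The fold over the local region is a ratio and cannot be set against intervals of normalized tags. The TRIM24 exon counts were 0 throughout, but most of their alternatives only remove sites or genes and could give nothing else. With the promoter window and the last coding exon removed, the gene body counts were 0 and 2 members for TRIM24 with ethanol and R1881, and 10 and 8 for TRIM28. With only the sites at or above the median strength of each list, TRIM24 counts were 5 and 5 members for promoters and 3 and 3 for gene bodies. Those settings keep fewer sites by construction. At a minimum of 6.0 normalized tags in all samples, the TRIM28 exon counts were 13 and 13. 2 alternatives were chosen after seeing the data, namely the 47 members with a C2H2 finger and the 44 with at least 90% unique 31-mers, and neither could lower an exon count, since all exons with a site have at least 6 fingers and at least 93.6% unique 31-mers. No paired analysis was possible because each condition has 1 library, and no replicate could be left out. Depth limits the calls, since sites under 9 tags, or 12 in TRIM28 with ethanol, were mostly not listed.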
